A study of Bos taurus with 48 samples.

Results

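Expression was examined for 7 genes of propionate and ketone body use in subcutaneous adipose tissue of growing and pregnant Norwegian Red heifers. *PCCB*, *MCEE* and *MUT* encode the enzymes that carry propionate into the citric acid cycle, *BDH1*, *ACAT1* and *AACS* encode enzymes of ketone body metabolism, and *SLC16A7* encodes the monocarboxylate transporter MCT2. They were picked by function from the list of genes that differed between LPHE and LPLE heifers at 12 months in these same samples, and they are 7 of the 24616 gene rows in the count tables. The Ensembl identifiers are ENSBTAG00000015221 for *PCCB*, ENSBTAG00000035247 for *MCEE*, ENSBTAG00000014272 for *MUT* (now named *MMUT*), ENSBTAG00000000448 for *BDH1*, ENSBTAG00000012885 for *ACAT1*, ENSBTAG00000005678 for *AACS* and ENSBTAG00000021287 for *SLC16A7*. All 7 were expressed at both samplings, that is, they passed the minimum of 2 CPM (the read count of a gene scaled to the library total) in at least 3 samples.

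RNA of 24 heifers was sequenced at 2 samplings, which gave 48 libraries, with 6 heifers on each of 4 diets: LPHE (low protein, high energy), LPLE (low protein, low energy), HPHE (high protein, high energy) and HPLE (high protein, low energy). High-energy (HE) heifers had grass silage ad libitum, low-energy (LE) heifers had restricted rations of that silage diluted with wheat straw, and protein was set by the roughage as well as by the concentrate, so that HE and LE rations also differed in protein. Within each diet 3 heifers came from the pedigree HMY and 3 from LCM, which are genetic groups selected for milk yield and against clinical mastitis. The first sampling, at 12 months of age, fell within the experimental feeding, which ran from 3 months of age to successful breeding at 400 kg body weight. The second sampling was in gestation month 7, at 20 to 24 months of age, when all heifers had moved to the same low-energy feed, offered ad libitum, so that HE and LE then name the earlier rearing diet. HE heifers reached the breeding weight at a younger age, and the effects of rearing diet and of age on the month 7 contrasts cannot be told apart. The biopsies of 12 months were taken beside the tail base, and the libraries were selected for RNA quality.

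Propionate, absorbed from rumen fermentation, is the chief glucose precursor of ruminants. Propionyl-CoA, also formed from branched-chain amino acids and odd-chain fatty acids, is carboxylated by propionyl-CoA carboxylase, of which *PCCB* encodes the beta subunit, epimerized by the *MCEE* product and rearranged to succinyl-CoA by the cobalamin-dependent mutase encoded by *MUT*. The ketone body beta-hydroxybutyrate is made from butyrate in the rumen wall and in the liver, enters cells through monocarboxylate transporters such as MCT2, and is oxidized to acetoacetate by the mitochondrial dehydrogenase encoded by *BDH1*; acetoacetate then yields acetyl-CoA through the mitochondrial thiolase encoded by *ACAT1*, or is activated in the cytosol by the *AACS* product, which feeds it into fatty acid and sterol synthesis.

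Reads assigned to genes numbered 14815595 to 59809633 per library at 12 months and 22430093 to 61027456 in gestation month 7. Values below are CPM after TMM normalization over all 48 libraries, and levels are not compared between genes, since gene lengths were not used. The adipocyte genes *LEP* and *CIDEC*, the only 2 of 7 listed adipocyte markers with an identifier, were above 0 in every library. Summed CPM of 5 skeletal muscle markers reached 10 or more in 10 libraries (at 12 months 3 of LPLE, 3 of HPHE and 1 of HPLE; in gestation month 7, 2 of HPHE and 1 of HPLE), while *MYH2* and *MYL1* were at 0 in 14 to 19 of 24 libraries per sampling. Counts of differentially expressed genes (DEG) were repeated without these 10 libraries.

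At 12 months all 3 propionate genes were higher in LPHE than in LPLE heifers. *PCCB* ran from 134 to 242 CPM in LPHE (median 195) and from 79.6 to 199 in LPLE (median 105). *MCEE* ran from 19.6 to 47.6 CPM in LPHE (median 35.9) and from 13.4 to 26.6 in LPLE (median 16.3). *MUT* ran from 135 to 283 CPM in LPHE (median 172) and from 74.1 to 167 in LPLE (median 111). For each gene the LPHE median lay above or close to the highest LPLE heifer, but the 2 groups overlapped. The log2 fold change was 0.72 (SE 0.229, FDR = 0.0437) for *PCCB*, 0.95 (SE 0.216, FDR = 0.00316) for *MCEE* and 0.75 (SE 0.241, FDR = 0.0463) for *MUT* by edgeR's likelihood ratio test with Benjamini-Hochberg adjustment over 13339 genes, the test behind every FDR given here unless another is named.

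The ketone body and transporter genes were also higher in LPHE at 12 months. *BDH1* ran from 38.2 to 107 CPM in LPHE (median 95) and from 12.5 to 52.7 in LPLE (median 35.2). Here 5 of the 6 LPHE heifers exceeded every LPLE heifer, and the LPHE heifer at 38.2 CPM stood far below the rest of its group. *ACAT1* ran from 304 to 873 CPM in LPHE (median 555) and from 224 to 405 in LPLE (median 289.9). *AACS* ran from 104 to 251 CPM in LPHE (median 127) and from 64.3 to 127 in LPLE (median 67.8). *SLC16A7* ran from 162 to 830.1 CPM in LPHE (median 494) and from 180.0 to 404 in LPLE (median 222). The groups overlapped for each of the 4 genes, and for *SLC16A7* the lowest of all 12 heifers was an LPHE animal. The log2 fold change was 1.50 (SE 0.470, FDR = 0.0397) for *BDH1*, 0.89 (SE 0.230, FDR = 0.00889) for *ACAT1*, 0.82 (SE 0.252, FDR = 0.0342) for *AACS* and 0.93 (SE 0.285, FDR = 0.0338) for *SLC16A7*.

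Thus 7 of 7 genes were DEG at FDR below 0.1 and higher in LPHE, where 4.45% of the genes tested were higher. Their median log2 fold change was 0.89 against -0.02 over all genes tested. Since the 7 genes come from the list of LPHE-LPLE DEG drawn up on these same 12-month samples, neither their direction nor this count is independent evidence. No gene of the 7 had ranges apart, against 1.34% of genes tested. The quasi-likelihood test called 6 of them (*BDH1* FDR = 0.116), as did the likelihood ratio test fitted on all 48 samples (*BDH1* FDR = 0.175), and DESeq2 called 7. Without LPLE heifer 18 only *MCEE* and *ACAT1* remained DEG, and single calls were also lost without other heifers, namely *PCCB* without heifer 3, 8, 16 or 24, *MUT* without 24, *AACS* without 20 and *SLC16A7* without 5, with FDR up to 0.172. Without the 10 libraries with muscle RNA, 5 remained, and *MUT* (log2 fold change 0.71, FDR = 0.234) and *PCCB* (0.56, FDR = 0.358) did not, with fewer samples in the fit.

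The summed CPM of *LEP* and *CIDEC* moved with energy at 12 months, from 2046 to 3381 in HE (median 2849) and from 888 to 2818 in LE heifers (median 1608). The summed CPM of the fibroblast genes *COL1A1* and *DCN*, the only 2 of 3 listed fibroblast markers with an identifier, moved the other way, from 6925 to 22002 in HE (median 12847) and from 9878 to 42763 in LE (median 20861). Both adipocyte markers are themselves LPHE-LPLE DEG of the same list, and the part of tissue make-up in the differences was not tested. In bulk tissue, fewer cells of a type and less RNA per cell cannot be told apart.

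In the high-protein heifers at 12 months the energy contrast was smaller and no gene passed the test. *BDH1* ran from 43.2 to 221 CPM in HPHE (median 84.3) and from 15.6 to 235 in HPLE (median 45.3). *SLC16A7* ran from 232 to 719 CPM in HPHE (median 508) and from 281 to 378 in HPLE (median 346). For *BDH1* the highest value of both groups came from an HPLE heifer, and for *SLC16A7* the HPHE range enclosed the HPLE range. Log2 fold changes were 0.13 for *PCCB*, 0.20 for *MCEE*, 0.24 for *MUT*, 0.61 for *BDH1* (95% interval -0.32 to 1.54), 0.38 for *ACAT1*, 0.41 for *AACS* and 0.54 for *SLC16A7* (95% interval -0.01 to 1.09). None of the 7 was a DEG (FDR 0.702 to 0.941), where 0.06% of genes were higher, and 0 reached an unadjusted p below 0.05. The quasi-likelihood test and DESeq2 also called 0. The *BDH1* value rose to 1.33 without HPLE heifer 7, the animal at 235 CPM, and fell to 0.28 without heifer 19, and it was not a DEG in either case.

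The energy effects in LP and HP heifers were not shown to differ at 12 months. The difference LP minus HP was above 0 for all 7 genes, from 0.39 for *SLC16A7* (95% interval -0.39 to 1.17) to 0.89 for *BDH1* (95% interval -0.38 to 2.16) on the log2 scale, but 0 were DEG, where 0.0825% of genes were higher. The *BDH1* difference was 0.09 without HPLE heifer 7. *MCEE* alone had an unadjusted p below 0.05 (difference 0.75, FDR = 0.964), and the quasi-likelihood test and DESeq2 called 0. Averaged over protein level, HE exceeded LE for 5 of 7 genes at FDR below 0.05, where 4.69% of genes were higher. The LP heifers among these samples are those in which the genes were first listed, so this count is not independent evidence either. The log2 fold changes were 0.57 for *MCEE* (FDR = 0.00694), 0.63 for *ACAT1* (FDR = 0.00475), 1.05 for *BDH1* (FDR = 0.0330), 0.62 for *AACS* (FDR = 0.0152) and 0.73 for *SLC16A7* (FDR = 0.00895). *MUT* at 0.49 (FDR = 0.0512) and *PCCB* at 0.43 (FDR = 0.0836) fell short. Without the libraries with muscle RNA 3 remained, with *MCEE* at 0.54 (FDR = 0.0916) and *BDH1* at 1.02 (FDR = 0.0868). *BDH1* also lost its call in the quasi-likelihood test (FDR = 0.0931), with an estimated dispersion prior (FDR = 0.0525) and in the fit on all 48 samples (0.85, FDR = 0.215), and when heifer 1, 4, 9, 11, 13, 16, 17, 18, 19 or 24 was left out (FDR up to 0.0966).

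Protein level and pedigree gave no DEG among the 7 genes at 12 months. Where 0.0075% of genes were higher in HPLE than in LPLE, 0 of the 7 were DEG by the likelihood ratio test, the quasi-likelihood test or DESeq2, although 3 had an unadjusted p below 0.05: *BDH1* at 1.23, *MCEE* at 0.49 and *AACS* at 0.50 on the log2 scale. The *BDH1* value fell to 0.39 without HPLE heifer 7. Averaged over energy level, HP minus LP ran from 0.02 (*ACAT1*) to 0.79 (*BDH1*, unadjusted p = 0.0148, FDR = 1), and again 0 were DEG by any of the 3 tests, where 0.0225% of genes were. Without heifer 7 the *BDH1* value was 0.35. In HPHE against LPHE the 7 log2 fold changes lay between -0.26 (*MCEE*) and 0.35 (*BDH1*), and 0 had an unadjusted p below 0.05 or were called by the other tests, where 0.0225% of genes were DEG. Between pedigrees, HMY minus LCM ran from -0.29 (*MUT*) to 0.14 (*AACS*), with 0 DEG where 0.0075% of genes were DEG, 0 at an unadjusted p below 0.05, and 0 by the other tests.

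**Figure D1:**
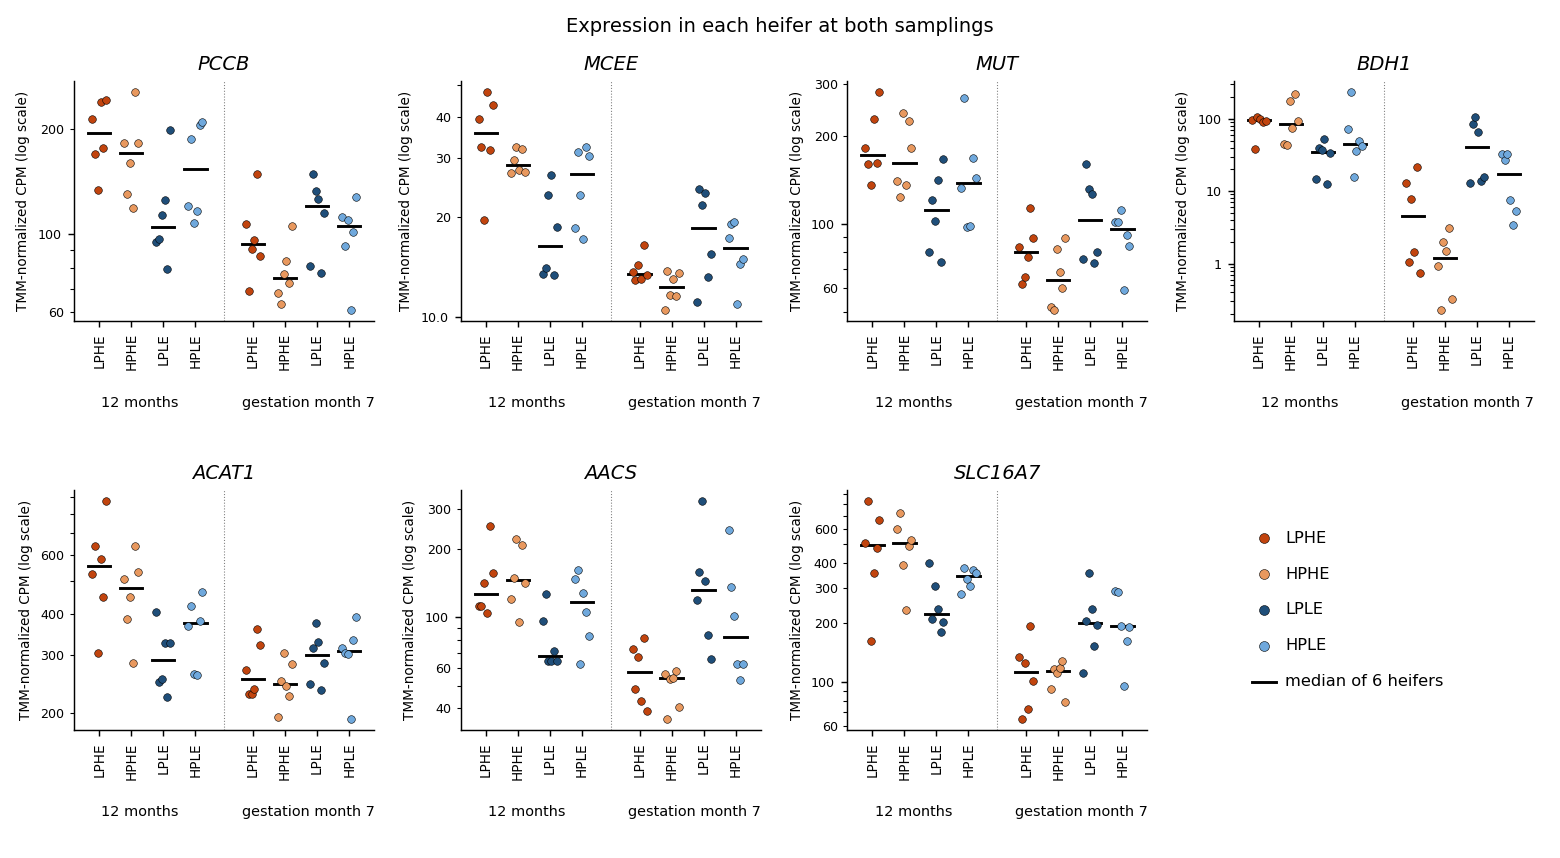
TMM-normalized CPM on a log axis for each heifer (points) on each diet at both samplings, 1 panel per gene, with group medians as bars. At 12 months the HE and LE points of every gene overlap, and in gestation month 7 *BDH1* of HPHE heifers lies at 0.230 to 3.07 CPM, below all HPLE heifers.

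In gestation month 7 the direction was turned: *BDH1*, *AACS* and *SLC16A7* were lower in heifers reared on HE than in those reared on LE, at both protein levels. *BDH1* ran from 0.731 to 21.5 CPM in LPHE (median 4.60) and from 12.8 to 107 in LPLE (median 40.4). In the high-protein heifers it ran from 0.230 to 3.07 CPM in HPHE (median 1.20) and from 3.45 to 32.7 in HPLE (median 17.3). LPHE and LPLE overlapped, whereas every HPHE heifer was below every HPLE heifer, a separation found for 0.806% of genes tested. The lowest count was 7 reads. In all HE heifers the median was 1.46 CPM, and in all LE heifers 21.3. The HE median lay below the 2 CPM set as the minimum for expression, which a gene had to reach in only 3 samples. Of the 12 HE heifers, 9 were below the lowest LE heifer. The log2 fold change was -3.48 (SE 0.730, FDR = 0.00271) for LPHE-LPLE, an 11.2-fold difference, and -3.94 (SE 0.707, FDR = 0.000195) for HPHE-HPLE, a 15.3-fold difference. Over both protein levels it was -3.71 (SE 0.513, FDR = 6.22e-09), a 13.1-fold difference, and *BDH1* had the smallest p of the 13403 genes tested. These folds come from the model with genetic group. Without that term LPHE-LPLE was -2.73, still a DEG, and the plain means were 7.58 CPM in LPHE and 49.9 in LPLE, and over both protein levels 4.45 CPM in HE and 34.0 in LE, a 7.63-fold difference.

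*AACS* ran from 38.8 to 80.9 CPM in LPHE (median 57.9) and from 65.8 to 323 in LPLE (median 131.9). In HPHE it ran from 35.9 to 58.5 CPM (median 54.0) and in HPLE from 53.4 to 242 (median 82.1). The groups overlapped at both protein levels, but 8 of the 12 LE heifers were above the highest HE heifer, and the LE heifers were far more spread. The log2 fold change was -1.38 (SE 0.300, FDR = 0.00458) for LPHE-LPLE, -1.12 (SE 0.298, FDR = 0.0333) for HPHE-HPLE and -1.25 (SE 0.211, FDR = 2.53e-06) over both, where the gene ranked 17 by p.

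*SLC16A7* ran from 65.0 to 193 CPM in LPHE (median 113) and from 111 to 359 in LPLE (median 200.3). In HPHE it ran from 79.2 to 127 CPM (median 114) and in HPLE from 95.7 to 290.0 (median 192). Again the groups overlapped, and 7 of the 12 LE heifers were above the highest HE heifer. The log2 fold change was -0.92 (SE 0.260, FDR = 0.0606) for LPHE-LPLE, -0.92 (SE 0.259, FDR = 0.0520) for HPHE-HPLE and -0.92 (SE 0.183, FDR = 0.000114) over both.

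The remaining ketone body gene and the propionate genes differed less. *ACAT1* ran from 195 to 359 CPM in HE (median 246) and from 193 to 389 in LE heifers (median 309). *MCEE* ran from 10.5 to 16.5 CPM in HE (median 13.2) and from 10.9 to 24.2 in LE (median 16.3). For *MCEE* 6 of the 12 LE heifers were above the highest HE heifer, and for *ACAT1* 2 were. *MUT* ran from 50.7 to 113 CPM in HE (median 72.5) and from 59.1 to 160.0 in LE (median 96.2). *PCCB* ran from 63.1 to 148 CPM in HE (median 85.3) and from 60.9 to 148 in LE (median 111). For *PCCB* the 2 ranges all but coincided. The log2 fold changes over both protein levels were -0.39 (FDR = 0.0854) for *MCEE*, -0.43 (FDR = 0.0657) for *MUT*, -0.28 (FDR = 0.276) for *PCCB* and -0.21 (FDR = 0.400) for *ACAT1*.

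*BDH1*, *AACS* and *SLC16A7* were thus the DEG of month 7, 3 of 7 genes in LPHE-LPLE, where 0.739% of genes were lower, 3 of 7 in HPHE-HPLE, where 0.783% were lower, and 3 of 7 over both, where 2.66% were lower. The median log2 fold change of the 7 genes over both protein levels was -0.43, against 0.01 over all genes tested. The quasi-likelihood test called the same 3 over both protein levels (FDR 0.00579 to 0.0128) but 0 within either, where its FDR ran from 0.118 to 0.177 for these 3 genes in LPHE-LPLE with 4 of 7 at an unadjusted p below 0.05, and from 0.143 to 0.255 in HPHE-HPLE with 5 of 7, while DESeq2 called 3 in each. Without HPLE heifer 1 or 7 *BDH1* alone remained in HPHE-HPLE, and *SLC16A7* was also lost there without heifer 2, 11, 21 or 23 (FDR up to 0.402) and in LPHE-LPLE without heifer 5, 8, 10, 12, 14, 16 or 24 (FDR up to 0.332). *SLC16A7* also missed the threshold in LPHE-LPLE with library size scaling (FDR = 0.101), without genetic group (FDR = 0.121) and on all 48 samples (FDR = 0.193), and in HPHE-HPLE on all 48 samples (FDR = 0.145) and without the libraries with muscle RNA (FDR = 0.137). The summed CPM of *LEP* and *CIDEC* in this sampling ran from 983 to 2342 in HE (median 1982) and from 1208 to 2800 in LE heifers (median 2062), and that of *COL1A1* and *DCN* from 7280 to 32817 in HE (median 16825) and from 7996 to 42178 in LE (median 15094).

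**Figure D2:**
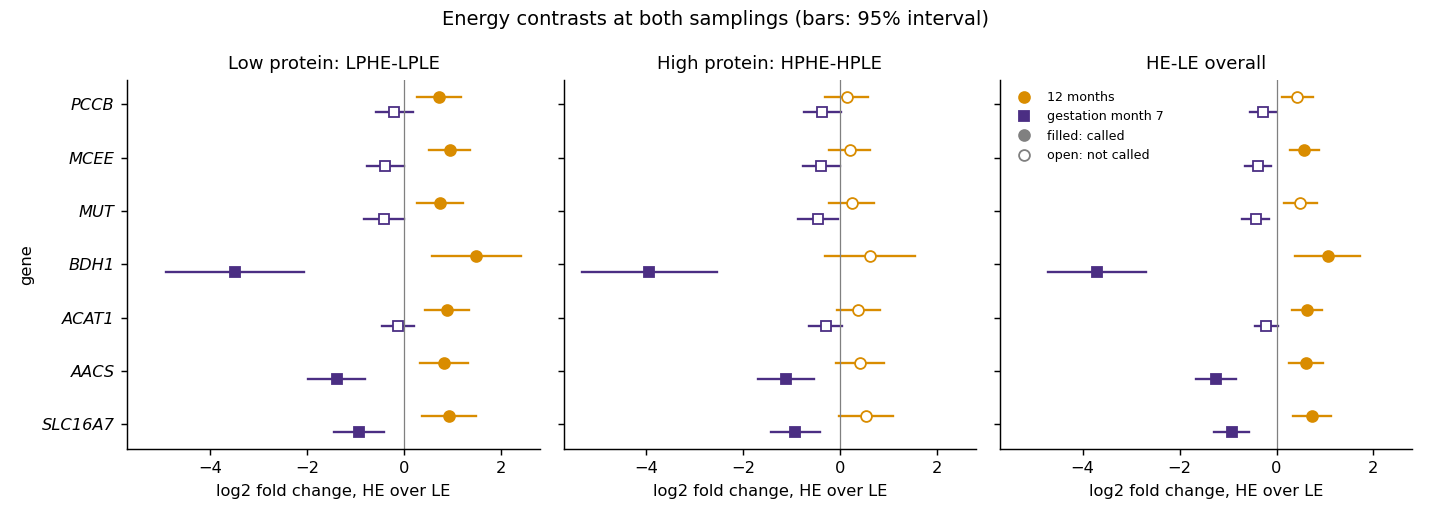
Log2 fold change of HE over LE heifers for each gene in LP heifers, in HP heifers and over both, at 12 months and in gestation month 7, with 95% intervals as bars and DEG as filled points. All 12-month points lie above 0 and all month 7 points lie below 0, with *BDH1* farthest out at -3.48, -3.94 and -3.71.

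The energy effects of LP and HP heifers were not shown to differ in gestation month 7 either. Their difference ran from -0.26 for *AACS* (95% interval -1.08 to 0.56) to 0.46 for *BDH1* (95% interval -1.33 to 2.24), and none of the 7 was a DEG, where 0.00746% of genes were higher. Here 0 had an unadjusted p below 0.05, and the quasi-likelihood test and DESeq2 called 0.

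*BDH1* was also lower in HP than in LP heifers in gestation month 7. Its log2 fold change was -2.18 (SE 0.671) for HPHE-LPHE and -1.72 (SE 0.646) for HPLE-LPLE, neither of them a DEG (FDR = 1 for both) at unadjusted p of 0.00117 and 0.00765, where 0.00746% and 0.0746% of genes were. Averaged over energy level it was -1.95 (SE 0.460, FDR = 0.0419), so that *BDH1* was 1 of 7 called, where 0.0224% of genes were lower. The other 6 ran from -0.33 (*AACS*) to -0.05 (*ACAT1*). This *BDH1* call did not hold in the quasi-likelihood test (FDR = 0.904) or DESeq2 (FDR = 0.183), and it was lost without any 1 of 15 heifers, numbers 1, 2, 3, 6, 8, 9, 10, 11, 13, 14, 17, 19, 20, 21 and 23 (FDR up to 0.253).

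Pedigree showed no DEG among the 7 genes in gestation month 7, where 0.0522% of genes were DEG, although 2 of 7 had an unadjusted p below 0.05. These were *BDH1* at 1.37 (FDR = 0.462) and *AACS* at 0.56 (FDR = 0.497) for HMY over LCM, and the quasi-likelihood test and DESeq2 called 0. In LPHE heifers *BDH1* stood at 7.76, 13 and 21.5 CPM in HMY and at 0.731, 1.04 and 1.45 in LCM. *AACS* in the same heifers stood at 67.1, 72.9 and 80.9 CPM in HMY and at 38.8, 43.2 and 48.8 in LCM. The 3 HMY heifers of this diet were above the 3 LCM heifers for both genes and also for *SLC16A7* and *MCEE*, which was noticed after the values were seen and was not tested by itself. For *PCCB*, *MUT* and *ACAT1* the pedigrees overlapped in this diet. The share of all genes with the pedigrees of this diet apart was not counted. In LPLE the pedigrees overlapped, and the middle LCM heifer was the higher for *BDH1* (65.1 against 13.7 CPM) and for *AACS* (145 against 119). In HPHE the pedigrees overlapped for *BDH1*, at 0.918, 1.96 and 3.07 CPM in HMY and 0.230, 0.322 and 1.48 in LCM. For *MCEE* in HPHE the order was the reverse of that in LPHE. There the 3 LCM heifers were above the 3 HMY heifers, with the middle heifer at 13.5 CPM in LCM and 11.6 in HMY. The share of all genes with the pedigrees apart was not counted in HPHE either.

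Between samplings all 7 genes fell in HE heifers. The fall was seen in 12 of 12 HE heifers for every gene. The share of all genes that fell in every HE heifer was not counted. These heifers include those of LPHE, whose 12-month samples are among those in which the genes were first listed. For *BDH1* the log2 ratio of month 7 over 12 months in single heifers ran from -6.99 to -2.07 in LPHE and from -8.17 to -5.63 in HPHE. For *SLC16A7* it ran from -3.68 to -0.37 over the 12 HE heifers, and for *AACS* from -2.05 to -0.62. Fitted log2 fold changes in LPHE were -0.96 for *PCCB*, -1.34 for *MCEE*, -1.22 for *MUT*, -3.74 (SE 0.694) for *BDH1*, -1.03 for *ACAT1*, -1.34 for *AACS* and -2.15 (SE 0.295) for *SLC16A7* (FDR 1.39e-10 to 0.000193). In HPHE they were -1.14 for *PCCB*, -1.26 for *MCEE*, -1.39 for *MUT*, -6.39 (SE 0.777) for *BDH1*, an 83.6-fold difference, -0.90 for *ACAT1*, -1.63 for *AACS* and -2.20 (SE 0.294) for *SLC16A7* (FDR 2.79e-13 to 0.000142).

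Thus 7 of 7 genes were DEG in both HE diets, where 16% of the 13718 genes tested were lower in LPHE and 15.9% in HPHE. The LPHE samples of 12 months are among those in which the genes were first listed, so the LPHE count is not independent evidence. Ranges at the 2 samplings were apart for 4 of 7 genes in LPHE (*MCEE*, *MUT*, *BDH1* and *AACS*), against 7.9% of genes, and for 6 of 7 in HPHE (all but *ACAT1*), against 12.2%. The median log2 fold change of the 7 genes was -1.34 in LPHE and -1.39 in HPHE, against 0.03 and 0.04 over all genes tested. The quasi-likelihood test, DESeq2 and a fit with heifer as a block also called 7 in each. Age, pregnancy and the change of feed came together between the samplings, and their effects cannot be told apart. In the same HE heifers the median summed CPM of *LEP* and *CIDEC* was 2849 at 12 months and 1982 in month 7, and that of *COL1A1* and *DCN* 12847 and 16825. Singly, over all 24 heifers, the *CIDEC* median was 1995 CPM at 12 months and 1529 in month 7, but the *LEP* median was 341 and 464. The part of these markers in the falls was not tested.

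LE heifers moved less and not all in 1 direction. The LPLE samples of the first sampling are among those in which the genes were first listed, as lower than in LPHE. The LPLE changes, and their comparison with those of HE heifers, are therefore not independent evidence. In LPLE *AACS* rose in 6 of 6 heifers, by 0.03 to 2.32 on the log2 scale, and *BDH1* rose in 4 of 6. None of the 7 was a DEG in LPLE, where 0.598% of genes were, with *AACS* at 0.84 (SE 0.292, FDR = 0.246) the only gene at an unadjusted p below 0.05 and 0 called by the quasi-likelihood test or DESeq2. *AACS* passed without heifer 8 (FDR = 0.0973) and without the libraries with muscle RNA (log2 fold change 1.23, FDR = 0.0556). The other log2 fold changes in LPLE ran from -0.28 (*SLC16A7*) to 0.61 (*BDH1*, 95% interval -0.60 to 1.82).

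In HPLE all 7 log2 fold changes were below 0, and 3 of 7 genes were DEG, where 1.05% of genes were DEG and lower. *MCEE* changed by -0.67 (FDR = 0.0443), *MUT* by -0.72 (FDR = 0.0843) and *BDH1* by -2.22 (FDR = 0.0407). With heifer as a block *PCCB* (FDR = 0.0256) and *SLC16A7* (FDR = 0.0917) passed as well, which made 5. DESeq2 called 4, with *PCCB* added (FDR = 0.0911), while the quasi-likelihood test called *MCEE* alone. None remained without HPLE heifer 7, the animal with the highest *BDH1* at 12 months, and *MCEE*, *MUT* and *BDH1* also lost their calls without heifer 17 or 21 (FDR up to 0.437), *MCEE* without the libraries with muscle RNA (FDR = 0.137), and *MUT* without heifer 10, 14, 15 or 19. *MCEE* fell in 11 of the 12 LE heifers, *MUT* and *SLC16A7* in 9, *PCCB* in 8, *ACAT1* and *BDH1* in 7 and *AACS* in 4. Averaged over all diets 7 of 7 genes fell at FDR below 0.05, where 19.4% of genes were lower, from -0.54 for *ACAT1* to -2.94 for *BDH1*. The LPHE and LPLE samples of 12 months, in which the genes were first listed, are part of this average.

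**Figure D3:**
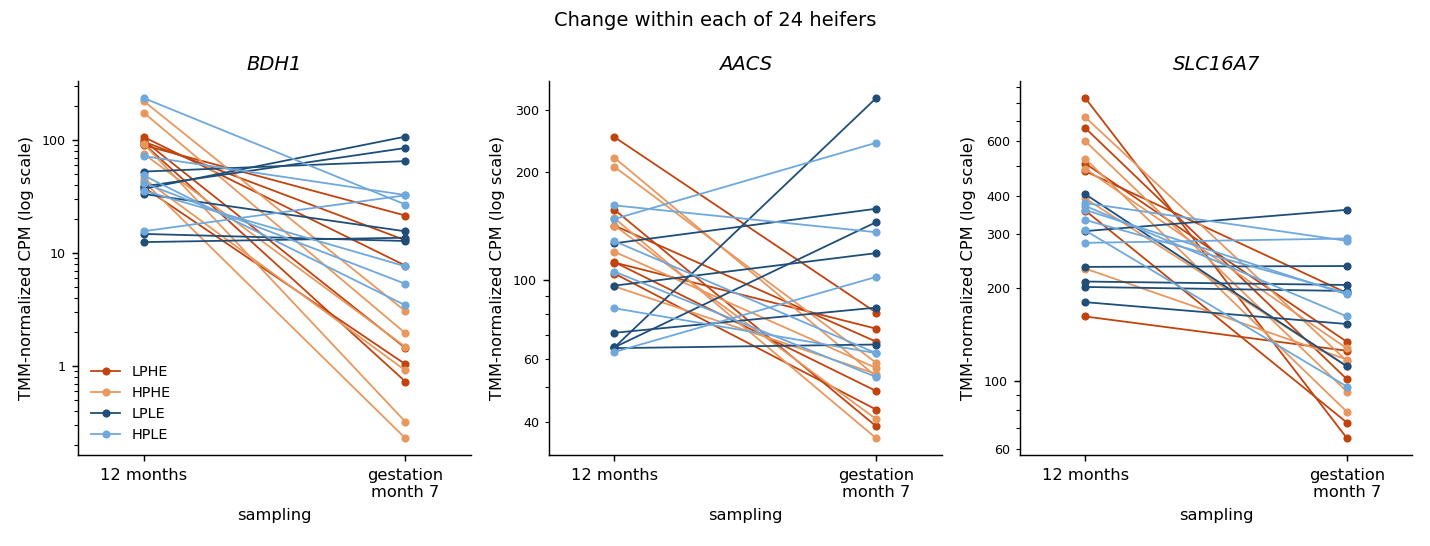
TMM-normalized CPM of *BDH1*, *AACS* and *SLC16A7* on a log axis at both samplings, with 1 line per heifer coloured by diet. The lines of all 12 HE heifers go down, and the 6 LPLE lines of *AACS* go up.

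**Figure D4:**
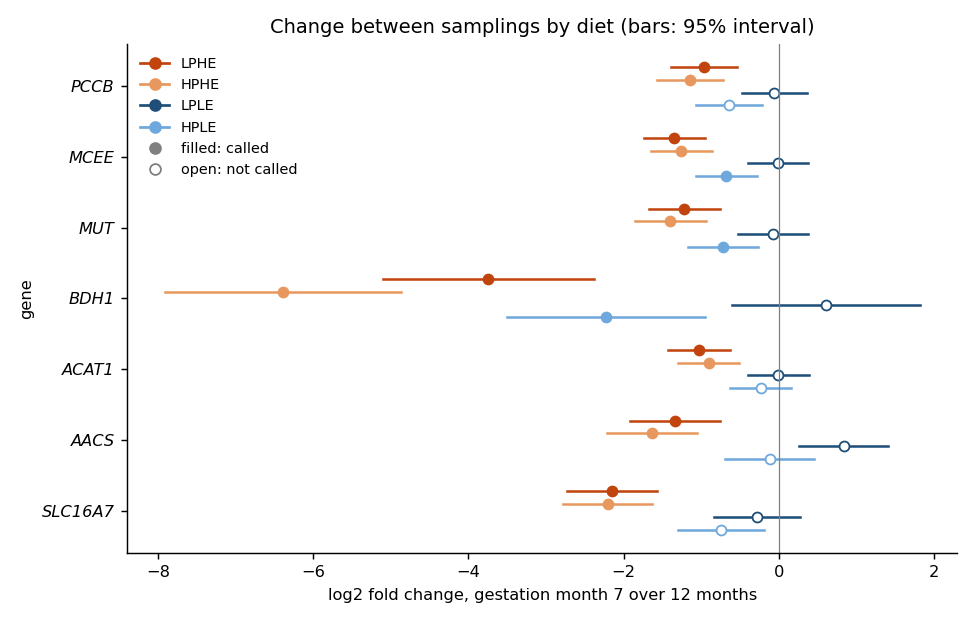
Log2 fold change of gestation month 7 over 12 months for each gene and diet, with 95% intervals as bars and DEG as filled points. The HE diets lie at -0.90 or lower for every gene, and no LPLE point is filled.

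The change of the energy effect between the samplings was tested directly. In LP heifers the energy effect of month 7 minus that of 12 months was below 0 for 7 of 7 genes at FDR below 0.1, where 6.76% of genes were lower. It was -0.91 for *PCCB* (FDR = 0.0494), -1.33 for *MCEE* (FDR = 0.000312), -1.14 for *MUT* (FDR = 0.0137), -4.35 for *BDH1* (FDR = 0.000293), -1.02 for *ACAT1* (FDR = 0.0106), -2.18 for *AACS* (FDR = 8.43e-05) and -1.87 for *SLC16A7* (FDR = 0.000447). In HP heifers it was so for 3 of 7, where 1.05% of genes were lower, namely *BDH1* at -4.16 (FDR = 0.00478), *AACS* at -1.51 (FDR = 0.0433) and *SLC16A7* at -1.46 (FDR = 0.0435), while the other 4 ran from -0.68 (*MUT*) to -0.50 (*PCCB*).

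Over both protein levels 7 of 7 genes passed at FDR below 0.05, where 9.53% of genes were lower, with *BDH1* at -4.26 (SE 0.640, FDR = 2.27e-08), *AACS* at -1.84 (SE 0.292, FDR = 1.04e-07) and *SLC16A7* at -1.66 (SE 0.284, FDR = 7.98e-07). *PCCB* did not pass without the libraries with muscle RNA (-0.76, FDR = 0.210 in LP and -0.64, FDR = 0.0858 over both), nor in LP without heifer 8, 10, 16 or 24 (FDR up to 0.160). In HP the quasi-likelihood test called *BDH1* alone, as did the likelihood ratio test without heifer 1, 6, 9 or 23, while *AACS* was also lost without 11 or 19 and *SLC16A7* without 2 (FDR up to 0.256). The 12-month side of the LP difference, which also enters the difference over both, is the contrast in which these genes were first listed.

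Ordered by mean level over the 8 groups of diet and sampling, the 4 groups of 12 months were the highest for *PCCB*, *MCEE*, *MUT* and *SLC16A7*, and HPHE of gestation month 7 was the lowest for all 7 genes. For *BDH1* the order of means ran from HPHE (109 ± 73.1, SD, n = 6), LPHE (87.4 ± 24.7) and HPLE (74.9 ± 80.7) of 12 months through LPLE of month 7 (49.9 ± 41.5) and of 12 months (31.5 ± 15.3) to HPLE (18.1 ± 14), LPHE (7.58 ± 8.37) and HPHE (1.33 ± 1.08) of month 7. For *AACS* the 2 highest means were HPHE of 12 months (156 ± 48.8) and LPLE of month 7 (149 ± 92.3). Of the 49 gaps between neighbours in these orders, 3 exceeded the larger of the 2 SDs: for *MCEE* from HPLE to LPLE at 12 months and from LPHE to HPHE in month 7, and for *SLC16A7* from HPLE to LPHE in month 7. All other neighbours lay within their spread.

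Heifers that were high for *BDH1* at 12 months, after removal of diet and genetic group, tended to be high again in gestation month 7. Over 24 heifers Pearson's r was 0.551 (permutation p = 0.00514, adjusted over the 7 genes 0.0360) and Spearman's rho 0.627 (permutation p = 0.00139, adjusted 0.00973), two-sided with 100000 permutations. The deviation had the same sign at both samplings in 19 of 24 heifers. Without the 2 heifers farthest from the median at 12 months r was 0.616, and it was 0.536 within the 12 HE and 0.560 within the 12 LE heifers. For *MUT* r was 0.408 (permutation p = 0.0487, adjusted 0.170) and rho 0.421 (permutation p = 0.0399, adjusted 0.140), with r of 0.309 without the 2 farthest heifers. The other 5 genes ran from -0.166 (*SLC16A7*) to 0.277 (*MCEE*), with adjusted permutation p of 0.348 to 0.440.

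**Figure D5:**
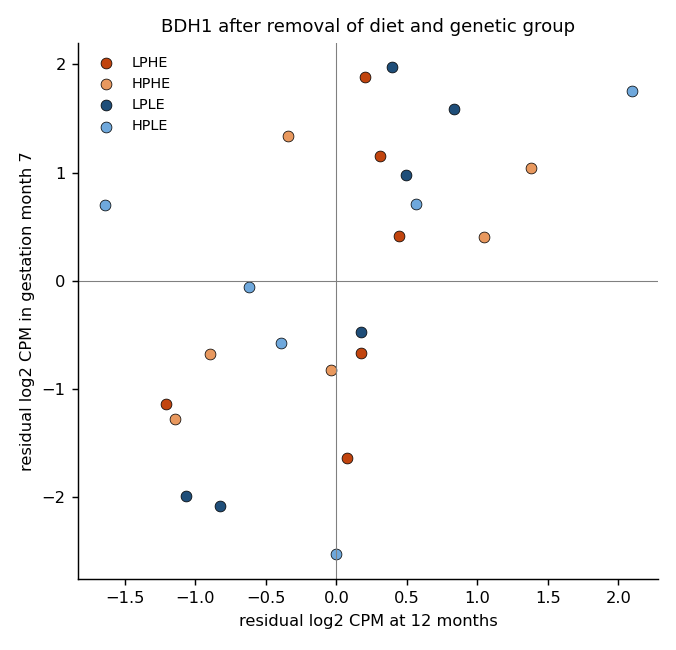
Residual log2 CPM of *BDH1* after removal of diet and genetic group, at 12 months (x axis) and in gestation month 7 (y axis), with 1 point per heifer coloured by diet. In 19 of 24 heifers both residuals have the same sign, with r = 0.551.

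Within each sampling the propionate genes varied together between heifers. After removal of diet and genetic group, *PCCB* and *MUT* had r of 0.771 at 12 months and 0.834 in month 7 over 24 heifers. *MCEE* and *PCCB* had 0.672 and 0.733, and *MCEE* and *MUT* 0.636 and 0.811. With the ketone body gene *ACAT1*, *PCCB* had 0.707 and 0.795. *BDH1* and *AACS* had 0.533 and 0.750. *AACS* and *MCEE* had -0.203 at 12 months and 0.659 in month 7, and *BDH1* and *SLC16A7* -0.231 and 0.700. These correlations are a description, since both genes of a pair share libraries and tissue make-up. Ranked by the lower of r at 12 months and r in month 7, genes outside the propionate genes were closer. Among 13134 genes *PCCB* ranked 12 for *MUT* and 43 for *MCEE*, and *MUT* ranked 75 for *MCEE*.

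Among 13134 genes compared, the genes most like each of the 7, by the lower of r at 12 months and r in month 7, were named where a symbol was known. They were *ECHS1* (0.893 and 0.907) and *ETFA* (0.868 and 0.917) for *PCCB*, *ECHS1* (0.776 and 0.862) and *FH* (0.778 and 0.776) for *MCEE*, and *HIBCH* (0.845 and 0.834) and *SDHD* (0.861 and 0.813) for *MUT*. *ECHS1* encodes a hydratase of fatty acid oxidation, *FH* fumarase, *HIBCH* a hydrolase of valine breakdown and *SDHD* a subunit of succinate dehydrogenase. For *ACAT1* they were *ETFDH* (0.897 and 0.865) and *CBR4* (0.888 and 0.862), for *AACS* the ATP citrate lyase gene *ACLY* (0.909 and 0.851), and for *SLC16A7* the mitochondrial phosphate carrier gene *SLC25A3* (0.876 and 0.807). For *BDH1* both genes, and for *AACS* and *SLC16A7* 1 each, had no symbol here.

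Other genes of the same pathways were followed from a list of 36, of which 10 had an identifier: 6 of 11 of propionate metabolism, 1 of 6 of cobalamin handling, 2 of 8 of ketone body metabolism, 1 of 7 of monocarboxylate transport and 0 of 4 receptors. The 10 identifiers also came from the published lists of DEG of these samples. Their 12-month counts, and the counts between samplings that use the 12-month samples, are therefore not independent evidence. In LPHE-LPLE at 12 months 7 of 10 were higher, where 4.45% of genes were. They were led by *ACSS2*, which encodes the cytosolic acetyl-CoA synthetase (1.22, FDR = 0.000290), and *BSG*, a chaperone of some monocarboxylate transporters (0.80, FDR = 0.0102). Next came *OXCT1*, the transferase that activates acetoacetate in mitochondria (0.76, FDR = 0.0512), and *ABAT*, a transaminase of beta-alanine breakdown (0.75, FDR = 0.0565). Over both protein levels 4 of 10 were higher, where 4.69% of genes were: *ACSS2* (0.95, FDR = 9.48e-06), *BSG* (0.69, FDR = 0.000565), *ALDH6A1* (0.51, FDR = 0.0309) and *SUCLG1* (0.42, FDR = 0.0374).

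In gestation month 7, 4 of 10 were lower in HE heifers over both protein levels, where 2.66% of genes were: *ACSS2* (-1.47, FDR = 1.78e-05), *ABAT* (-0.87, FDR = 0.000739), *SUCLG1*, a subunit of succinyl-CoA synthetase (-0.37, FDR = 0.0148), and *BSG* (-0.66, FDR = 0.0378). *OXCT1* was at -0.48 (FDR = 0.0511). Within LP and within HP heifers *ACSS2* was the 1 of 10 that passed (FDR = 0.0771 and 0.00793), where 0.739% and 0.783% of genes were lower. Between samplings 9 of 10 were DEG and lower in LPHE and 9 of 10 in HPHE, where 16% and 15.9% of genes were. In LPHE the smallest p belonged to *SUCLG1* (-1.11, FDR = 8.54e-09), *ACSS2* (-2.17, FDR = 2.07e-08), *MMAB* (-0.99, FDR = 2.18e-07) and *ABAT* (-1.47, FDR = 1.91e-06), and in HPHE to *ACSS2* (-2.80, FDR = 6.66e-13), *ABAT* (-1.83, FDR = 1.91e-09), *SUCLG1* (-1.08, FDR = 1.56e-08) and *BSG* (-1.48, FDR = 7.44e-07). In HPLE 1 of 10 was a DEG and lower, *ABAT* (-0.98, FDR = 0.0207), where 1.05% of genes were. In LPLE, where 0.598% of genes were DEG, the 10 genes ran from -0.33 (*ALDH6A1*) to 0.32 (*ACSS2*), with FDR of 0.830 or more. The change of the energy effect between samplings was below 0 and called for 7 of 10 in LP, where 6.76% of genes were lower. It was so for 2 of 10 in HP (*ACSS2* and *BSG*), where 1.05% were, and for 7 of 10 over both, where 9.53% were. Those over both were led by *ACSS2* (-2.38, FDR = 6.87e-10), *BSG* (-1.33, FDR = 1.93e-05), *SUCLG1* (-0.80, FDR = 0.000102) and *ABAT* (-1.22, FDR = 0.000156).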

How the data were processed

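RNA-seq read counts were analysed for subcutaneous adipose tissue of 24 heifers, each sampled at 12 months of age and in gestation month 7 (48 libraries of poly(A) RNA, paired ends, Illumina). Per the submitters' processing notes and the methods, the authors trimmed reads with cutadapt 1.3, aligned them to UMD3.1 with TopHat2 2.0.12, used SAMtools 1.19 and counted reads per gene with HTSeq. The deposited values were raw read counts per Ensembl gene, not normalized, with 5 summary rows that held 38.8% to 61% of the counts and were left out. The strand setting is not given in the sources used here, so reads of overlapping antisense genes cannot be told apart. Symbols were matched through the identifiers printed with the paper and the RefSeq gene table of ARS-UCD2.0, from which no coordinates were taken.

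Counts were tested with edgeR 4.0.16 in R 4.3.3. Tagwise dispersions and a generalized linear model with diet and genetic group follow the study's methods; TMM normalization, a prior df of 10 and the likelihood ratio test were chosen here. The test was run on genes with CPM of at least 2 in at least 3 samples. The model held diet and genetic group over the 24 samples of a sampling, or 8 groups of diet and sampling plus genetic group over 48 samples. P-values were adjusted by Benjamini-Hochberg over all genes tested, and a gene was called at FDR below 0.1, or below 0.05 in averaged and pedigree contrasts. The SE of a log2 fold change was its size divided by the square root of the likelihood ratio statistic. Persistence used residual log2 CPM with a prior count of 0.5.

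The 7 genes are named in every contrast, pathway genes by the 4 smallest p where any was called, and the 2 genes most like each of the 7 where a symbol was known. The 7 genes and all lists were chosen with earlier results of these data known. The single epithelial marker with an identifier (*DSP*) ran from 0.162 to 74.7 CPM and the single smooth muscle marker (*MYH11*) from 38.0 to 2747 CPM, and the macrophage and endothelial lists were not used here for want of identifiers.

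By the labels' animal numbers, both samples of a heifer are paired. Their residuals over 13718 genes correlated at -0.0552 to 0.583 (median 0.261, above 0.1 in 22 of 24), against a median of -0.00957 between different heifers. Alternatives were heifer as a block, edgeR's quasi-likelihood test, DESeq2 1.42.0, library size scaling, other count filters, no genetic group, another threshold, other sample sets and each heifer left out in turn. An estimated dispersion prior, and leaving out 10 libraries with at least 10 CPM of summed muscle markers, were added after the data were seen. On simulated counts for LPHE-LPLE at 12 months (13262 genes) the likelihood ratio test recovered 95% of 100 genes changed by 1.5 and 54% of 100 changed by 0.75 on the log2 scale, with 16.8% of 179 calls false, and the quasi-likelihood test 90% and 45%, with 5.59% false. No pair of libraries of a group agreed within counting noise. One listed pathway gene is not reported here by name.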

Additional observations from a re-analysis of the deposited data

Results flagged for a closer look

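Within groups of 6 heifers, 56 groups of gene, diet and sampling were examined for a value far from the rest by Dixon's ratio, for which chance gives about 1 in 20, and 4 stood out. These were *BDH1* at 12 months in LPHE heifer 5 (38.2 CPM, far below its group) and in HPLE heifer 7 (235 CPM, far above), *AACS* at 12 months in LPHE heifer 20 (251 CPM, far above) and *AACS* in gestation month 7 in LPLE heifer 10 (323 CPM, far above).

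The energy effect (HE minus LE, log2) differed between the 2 samplings by edgeR's likelihood ratio test of the difference itself, as month 7 minus 12 months. In LP heifers the difference was -1.33 for *MCEE*, -1.14 for *MUT*, -0.91 for *PCCB*, -1.02 for *ACAT1*, -4.35 for *BDH1*, -2.18 for *AACS* and -1.87 for *SLC16A7*. In HP heifers it was -4.16 for *BDH1*, -1.51 for *AACS* and -1.46 for *SLC16A7*. Over both it was -0.96 for *MCEE*, -0.91 for *MUT*, -0.70 for *PCCB* and -0.85 for *ACAT1*. For the rest it was -4.26 for *BDH1*, -1.84 for *AACS* and -1.66 for *SLC16A7*. The 12-month LPHE-LPLE contrast, in which these genes were first listed, enters the LP difference and the difference over both. Those 2 sets of values are therefore not independent evidence.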

How the results depend on the processing

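No call changed direction under any alternative run. The number of the 7 genes called moved by more than 1.5 times in these cases. HE-LE at 12 months went from 5 to 3 without the libraries with skeletal muscle RNA. The quasi-likelihood test took LPHE-LPLE of month 7 from 3 to 0, HPHE-HPLE of month 7 from 3 to 0, the fall in HPLE from 3 to 1 and the change of the HP energy effect from 3 to 1. HE-LE of month 7 went from 3 to 5 with DESeq2 and at an FDR of 0.1. HP-LP of month 7 went from 1 to 0 with the quasi-likelihood test, DESeq2, at least 10 counts in every sample (where *BDH1* was not tested), no genetic group, the estimated dispersion prior, all 48 samples and without muscle libraries. The change in LPLE went from 0 to 1 without muscle libraries. With heifer as a block the fall in HPLE went from 3 to 5, and the block changed no other call.

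With each heifer left out in turn, LPHE-LPLE at 12 months ran from 2 to 7 (lowest without heifer 18), HPHE-HPLE of month 7 from 1 to 3 (1 or 7), HE-LE of month 7 from 3 to 5 (highest without 4, 13 or 18), HP-LP of month 7 from 0 to 1, the change in LPLE from 0 to 1 (8), the fall in HPLE from 0 to 4 (7, 17 or 21) and the change of the HP energy effect from 1 to 3 (1, 6, 9 or 23). The cause of these shifts was not tested. Depth limits *BDH1* of month 7 in HPHE, where the lowest library held 7 reads.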
